A study of Mus musculus with 6 samples.

Results

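The genes described here are the mouse chemokine and interleukin genes and the genes of their receptors. They were taken by symbol from the deposited table of gene counts: chemokine ligands (Ccl, Cxcl and Cx3cl1), chemokine receptors (Ccr and Cxcr), interleukins, and interleukin receptor genes other than Il6st. The rule found 92 of the 17551 genes in the table, 44 ligands and 48 genes that match the receptor pattern. One of the latter, Il1rn, encodes a secreted antagonist and not a receptor. RNA came from neurospheres of C57BL/6 mice, which are floating clusters of cultured neural stem cells and their progeny. All cultures were grown in medium with the N2 and B27 supplements and the growth factors EGF and FGF. The G328V group, called mACVR1 and NPAC by the submitters, holds 3 libraries with the genotype label ACVR1 G328V, a glycine-to-valine change in a receptor of bone morphogenetic proteins. The WT group, called wt-ACVR1 and NP, holds 3 libraries with the label ACVR1 WT. The sources used here do not give what NP and NPAC stand for, which other alleles the cultures carry, how the mutant gene was introduced or the age of the mice. The submitters describe 3 biological replicates in each group, and no label says which animals or cultures they came from, and the p-values reflect the spread among these libraries, part of which may be technical.

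Chemokines are small secreted proteins that guide migrating cells through G protein-coupled receptors. Most interleukins act through receptor chains that signal by JAK kinases and STAT proteins or, in the IL-1 and IL-17 families, by adaptors that lead to NF-kB. In the brain, neural progenitors, astrocytes and endothelial cells make several of the ligands, while many of the receptors are best known from leukocytes and microglia. CXCL12 and its receptor CXCR4 are a known exception, guiding neural progenitors and interneurons.

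Total gene counts ranged from 115953495 to 191115532 per library. Levels are given in CPM, counts scaled to a common library size with edgeR's TMM factors, and 3 counts, taken as the floor of detection, correspond to 0.0163 to 0.0249 CPM. Acvr1 held 244, 250 and 650 CPM in G328V replicates 1, 2 and 3 and 42.5, 100 and 90.7 CPM in WT replicates 1, 3 and 70A, with no overlap between the groups. Xist, transcribed from an inactive X chromosome, held 443 to 795 CPM in G328V and at most 1.18 CPM in WT, whereas the Y-linked Ddx3y held at most 0.0326 CPM in G328V and 17.7 to 51.0 CPM in WT. Sex chromosome content therefore separated the groups as the genotype label does, and one cannot be told apart from the other. The 12 neural stem markers summed to 2525, 2908 and 3870 CPM in G328V and 9554, 2544 and 3820 CPM in WT replicates 1, 3 and 70A. Of these, Sox2 held 134 to 237 CPM in every library, while 1 marker was at 0 in G328V replicate 3 and 1 in WT replicate 3. Within a group the list had a median SD of log2 CPM of 1.45, against 0.633 over all tested genes. WT replicate 1 held 615 CPM of Olig1 and 416 CPM of Olig2, which were at most 1.07 and 0.938 CPM in the other libraries. It also had the highest sum over the oligodendrocyte lineage list, of which 7 genes were in the table, mostly from Olig1 and Olig2. That list summed to 1047 CPM in WT replicate 1, 304 and 201 CPM in G328V replicates 1 and 2, and 14.5 to 106 CPM elsewhere. Of its 6 tested genes, 3 were highest in G328V replicate 1, 1 in G328V replicate 2 and 2 in WT replicate 1. Of 23 microglia and macrophage markers, 14 were in the table and 8 of them were under 1 CPM in all 6 libraries. Their summed level was 37.1 to 67.1 CPM in G328V and 2.42, 110 and 69.9 CPM in WT replicates 1, 3 and 70A, mostly from Cd68 and Cd14 and, in replicate 70A, Laptm5. The more selective Csf1r, Ptprc and Cx3cr1 reached at most 1.70, 0.506 and 0.227 CPM. In bulk RNA, fewer cells of a type and less RNA per cell cannot be told apart.

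Promoter sequences are shown for Cxcl1, Cxcl3, Ccl20 and Il11 because they are inducible ligand genes whose level differed widely between libraries, or, for Cxcl3, a neighbour of Cxcl1 that shares a motif with it. Each is the stretch of 250 bases before the RefSeq gene start, 5′ to 3′ on the gene's strand, from RefSeq for build GRCm38.p6. Capitals mark matches to the NF-kB consensus in the first 3 and to the AP-1 motif TGANTCA in Il11. The Cxcl1 window lies at chr5:90890995-90891244 and that of Cxcl3 at chr5:90785851-90786100, both on the plus strand. The Ccl20 window lies at chr1:83116516-83116765 on the plus strand, and the Il11 window at chr7:4778142-4778391 on the minus strand.
Cxcl1: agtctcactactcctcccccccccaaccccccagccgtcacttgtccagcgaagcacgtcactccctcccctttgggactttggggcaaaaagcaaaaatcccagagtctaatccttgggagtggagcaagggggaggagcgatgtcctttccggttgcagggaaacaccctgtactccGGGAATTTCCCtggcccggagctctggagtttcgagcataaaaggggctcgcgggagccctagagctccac
Cxcl3: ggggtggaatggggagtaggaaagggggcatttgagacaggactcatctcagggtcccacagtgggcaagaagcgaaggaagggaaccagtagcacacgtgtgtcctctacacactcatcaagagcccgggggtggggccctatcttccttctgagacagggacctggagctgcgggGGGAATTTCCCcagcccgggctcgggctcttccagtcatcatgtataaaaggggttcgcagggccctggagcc
Ccl20: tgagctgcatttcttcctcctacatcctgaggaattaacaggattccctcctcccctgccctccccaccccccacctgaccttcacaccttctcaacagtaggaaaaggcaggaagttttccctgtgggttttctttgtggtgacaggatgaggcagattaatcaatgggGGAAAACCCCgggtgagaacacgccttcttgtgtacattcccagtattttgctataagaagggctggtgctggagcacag
Il11: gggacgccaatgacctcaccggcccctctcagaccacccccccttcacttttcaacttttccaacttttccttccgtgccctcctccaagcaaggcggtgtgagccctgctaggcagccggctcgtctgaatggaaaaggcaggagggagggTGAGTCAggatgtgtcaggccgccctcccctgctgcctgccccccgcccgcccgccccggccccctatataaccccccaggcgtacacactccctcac
The run GGGAATTTCCC stood 71 to 61 bases before the start of Cxcl1 and 73 to 63 bases before that of Cxcl3, and it matched the consensus on both strands. The Ccl20 run, GGAAAACCCC, lay 80 to 71 bases upstream, and TGAGTCA lay 98 to 92 bases before the start of Il11. Both strands were searched, and the motifs were picked after the members' levels had been seen. The NF-kB consensus was found in 13 of 81 promoter windows of members (16.0%), which serve 68 members, and in 7.25% of all 32851 windows. TGANTCA was in 14 of the 81 windows (17.3%) and in 6.75% of all. The GC-rich motif GGCGCC, bound by SMAD1/5, was in 2 of the 81 (2.47%), those of Cx3cl1 and Cxcl12, and in 9.59% of all. A match of letters describes the sequence and does not show binding.

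No member passed edgeR's quasi-likelihood test of G328V against WT. The test ran on 14643 genes with enough counts, of which 61 are members (29 ligands and 32 receptors), and called 0% of all genes at an adjusted p under 0.05. The adjusted p of every tested member was at least 0.997. An unadjusted p under 0.05 was found for 5 members, beside 4.06% of all tested genes (594). Of these 5, Il34, Il11, Cxcr4 and Il1rap were lower in G328V, beside 2.17% of all genes, and Il1rl2 was higher, beside 1.88%. limma-voom called 0 members and 0% of all genes. DESeq2, run as an alternative, called 3 members, Il34 and Il11 lower and Il1rl2 higher in G328V, where it called 0.986% of the 17551 genes (173), 0.450% lower and 0.536% higher. The median log2 difference, G328V minus WT, was -0.62 over the 29 ligands (12 positive, 17 negative) and -0.17 over the 32 receptors (16 positive, 16 negative), beside -0.0039 over all tested genes, of which 49.7% were positive and 50.3% negative. A log2 difference of at least 1 in size was found for 34 of the 61, beside 22.6% of all genes. The receptor median turned to 0.05 with limma-voom and to 0.02 without the X-linked members, and was -0.44 without G328V replicate 1 and 0.76 in a fit of 4 libraries with a replicate block. The CPM values of the groups did not overlap for 3 ligands (10.3%) and 2 receptors (6.25%), near the 9.70% of all tested genes (1421). G328V was higher for 2 of the 5, Ccl17 and Il1rl2, beside 5.25% of all genes, and WT for 3, Il34, Il11 and Cxcr4, beside 4.45%. Within a group the members were more spread out than most genes, with a median SD of log2 CPM of 1.53 against 0.633, and they were lower, with a median of 2.53 CPM against 22.2 CPM.

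Of the CC chemokine ligands, 13 were in the table and 10 were tested, 4 with positive and 6 with negative differences and a median of -0.40. Ccl2, which draws monocytes, had the highest level per length of all members, 187 CPM per kb of exon averaged over the 6 libraries. It held 35.3, 47.2 and 118 CPM in G328V and 3.30, 183 and 527 CPM in WT replicates 1, 3 and 70A. The G328V libraries thus lay between WT replicate 1 and the other WT libraries, and the log2 difference of -1.83 (SE 1.42) came with an unadjusted edgeR p of 0.245. Without WT replicate 70A it was -0.48, and limma-voom gave -0.32. Ccl7, a monocyte chemokine encoded beside Ccl2 on chromosome 11, held 4.93, 4.95 and 48.8 CPM in G328V and 1.25, 23.4 and 103 CPM in WT. It had the same lowest and highest library as Ccl2, and its log2 difference of -1.12 turned to 0.66 without WT replicate 70A. Ccl20, a ligand for cells that carry CCR6, held 0.338, 2.00 and 0.141 CPM in G328V and 0, 2.35 and 19.3 CPM in WT. Again WT replicate 70A was highest and WT replicate 1 lowest, with a log2 difference of -3.13 (SE 2.38) that was -0.53 without WT replicate 70A. Ccl25, known for homing of thymocytes and gut T cells, was even across libraries, at 3.06 ± 0.91 CPM in G328V and 2.98 ± 0.54 CPM in WT (SD, n = 3 each). Exons of Ccl25 overlap Elavl1 on the other strand, and the sources used here do not say whether reads were counted by strand. Ccl17, a ligand of CCR4, held 0.175, 0.947 and 0.408 CPM in G328V against 0.163, 0 and 0.161 CPM in WT. It was the CC ligand whose groups did not overlap, by a gap that is small beside the spread (log2 difference 2.24, SE 1.82).

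**Figure D1:**
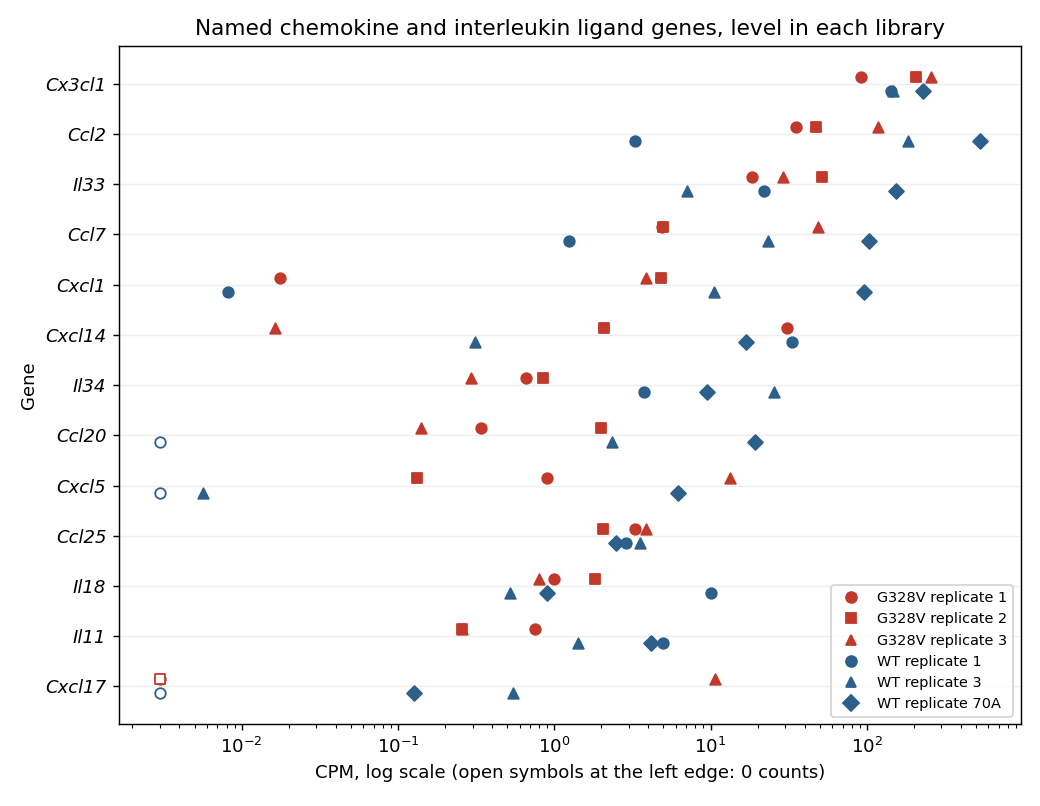
Level of the 13 named ligand genes in each library, in CPM on a log axis, with open symbols at the left edge for a count of 0. Red symbols are the 3 G328V libraries and blue symbols the 3 WT libraries, and the groups lie apart for Il34 and Il11, while WT replicate 70A (diamonds) is farthest right for Ccl2, Ccl7, Ccl20, Cxcl1 and Il33.

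Among the CXC and CX3C ligands, 12 were in the table and 10 were tested, 5 in each direction with a median of -0.26. Cx3cl1, a membrane-bound chemokine made by neurons, was the most even of the abundant ligands. It held 92.0, 206 and 257 CPM in G328V and 143, 147 and 228 CPM in WT, a log2 difference of 0.10 (SE 0.43). The WT values lay within the range of the G328V values. Cxcl1, a neutrophil chemokine, held 0.0175, 4.82 and 3.87 CPM in G328V and 0.00813, 10.5 and 95.8 CPM in WT. Replicate 1 of each group was at or below the floor of 3 counts, and the log2 difference of -3.61 (SE 2.60) was -0.88 without WT replicate 70A. Cxcl5, another neutrophil chemokine of the same stretch of chromosome 5, held 0.898, 0.133 and 13.3 CPM in G328V and 0, 0.00568 and 6.15 CPM in WT. Its log2 difference of 1.22 turned to -1.99 without G328V replicate 3. Cxcl14, a chemokine of epithelia and interneurons, held 30.7, 2.07 and 0.0163 CPM in G328V and 33.1, 0.313 and 16.9 CPM in WT. Each group spanned a wide range for it, and the difference of the groups was -0.62 on the log2 scale (SE 2.17). Cxcl17, a chemokine of mucosal tissue, was almost confined to 1 library: G328V replicate 3 held 10.7 CPM, 94.1% of its summed CPM, and no other library exceeded 0.546 CPM. Its log2 difference was 3.99 with that library and -8.11 without it. Cxcl12, the ligand of CXCR4, was low except in G328V replicate 3, at 0.181, 1.35 and 15.4 CPM in G328V and 2.67, 0 and 0.373 CPM in WT.

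Of 19 interleukins in the table, 9 were tested, 3 with positive and 6 with negative differences and a median of -1.07. Il34, the second ligand of the CSF1 receptor and a survival factor for microglia, had the smallest p-value of all members by edgeR and DESeq2, though not by limma-voom. It held 0.659, 0.847 and 0.294 CPM in G328V and 3.75, 25.5 and 9.496 CPM in WT. Every WT library was above every G328V library. The log2 difference was -4.43 (SE 0.97) with an unadjusted edgeR p of 0.00344, and DESeq2 called it lower with an adjusted p of 9.8e-05. DESeq2 made the same call without each of the 6 libraries in turn, while edgeR's adjusted p stayed at 0.997 with all of them. Il34 lies on chromosome 8 from 110741829 to 110805924 on the minus strand (GRCm38), and the antisense genes Gm15894 and Gm15895 overlap its exons. Il11, a cytokine of the IL-6 family, held 0.758, 0.258 and 0.256 CPM in G328V and 4.94, 1.42 and 4.17 CPM in WT, again without overlap. Its log2 difference was -3.05 (SE 1.01, unadjusted edgeR p of 0.0219), and the DESeq2 adjusted p was 0.0233. That DESeq2 call held without G328V replicate 1 and without WT replicate 3, and was lost without each of the other 4 libraries, with adjusted p-values of 0.0751 to 0.118. Il11 had 1.26, 0.544 and 0.603 counts per estimated fragment in G328V and 1.75, 1.41 and 1.65 in WT, where the median gene had 1.95 to 1.96 in each library. With the estimated fragment counts in place of the gene counts, its log2 difference was -2.08.

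Il33 and Il18 were named for their level, and for each of them 1 WT library set the mean. Il33, a nuclear alarmin of glia and barrier tissues, held 18.4, 51.5 and 29.2 CPM in G328V and 21.9, 7.08 and 155 CPM in WT. WT replicates 1 and 3 lay near or below the G328V libraries and replicate 70A far above them, so that the log2 difference of -0.89 turned to 1.18 without replicate 70A. Il18, an inflammasome cytokine, held 0.991, 1.83 and 0.794 CPM in G328V and 10.1, 0.523 and 0.896 CPM in WT. Here WT replicate 1 was the high one, and leaving it out moved the log2 difference from -1.68 to 0.74. Il6 was low throughout, at 0.286, 0.532 and 2.38 CPM in G328V and 0, 0 and 0.655 CPM in WT (unadjusted edgeR p of 0.389).

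**Figure D2:**
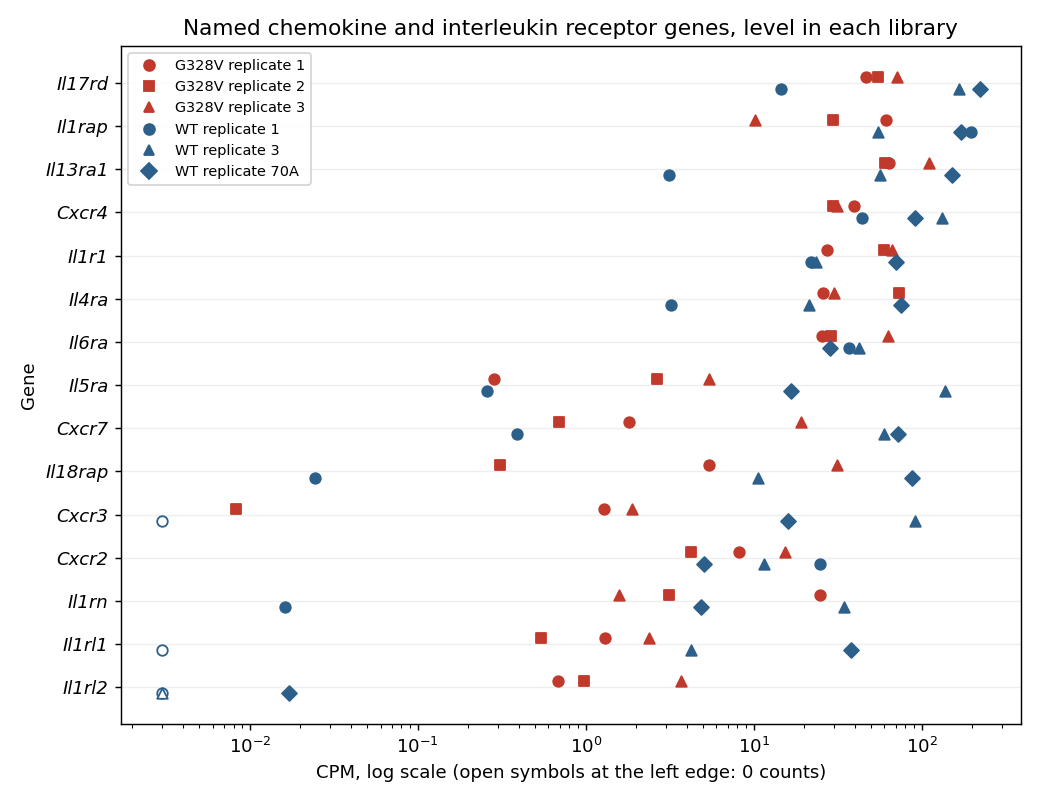
Level of the 15 named genes of the receptor pattern in each library, in CPM on a log axis, with open symbols at the left edge for a count of 0. The 3 G328V libraries (red) lie right of all 3 WT libraries (blue) for Il1rl2 and left of them for Cxcr4, and the groups overlap for the others.

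Of 12 chemokine receptors in the table, 6 were tested, 5 with negative differences and 1 with a positive one (median -2.01). Cxcr4, the receptor of CXCL12, had the highest level per length of the receptors, 34.1 CPM per kb on average. It held 39.8, 29.8 and 31.2 CPM in G328V and 44.1, 132 and 91.7 CPM in WT. The groups did not overlap, though WT replicate 1 was close to G328V replicate 1. The log2 difference was -1.41 (SE 0.43, unadjusted edgeR p of 0.0162), and the DESeq2 adjusted p was 0.219. Cxcr7, now named Ackr3, is an atypical receptor that takes up CXCL12. It held 1.81, 0.689 and 19.0 CPM in G328V and 0.390, 59.8 and 71.9 CPM in WT. WT replicates 3 and 70A were above all G328V libraries and WT replicate 1 below them, with a log2 difference of -2.62 (SE 1.85). Cxcr3, an X-linked receptor of interferon-induced chemokines best known from T cells, held 1.28, 0.00831 and 1.90 CPM in G328V and 0, 91.7 and 15.9 CPM in WT. It had the most negative difference of the receptors, -5.08 on the log2 scale (SE 2.81, unadjusted edgeR p of 0.119), with counts spread over both extremes within WT. Cxcr2, the receptor of CXCL1 and CXCL5, held 8.17, 4.25 and 15.3 CPM in G328V and 24.8, 11.5 and 5.09 CPM in WT, which overlapped. With 1.40 counts per fragment, the level of Cxcr2 differed between the deposited tables more than that of most genes. Of 14 T, B and NK cell markers, 9 were in the table and 8 of them were under 1 CPM in all 6 libraries. The highest was Lck. The list summed to 3.55, 7.96 and 6.85 CPM in G328V and 1.06, 1.57 and 2.32 CPM in WT. The part of such cells in the level of Cxcr3 was not tested.

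In the IL-1 receptor family, 5 members lie in a row on chromosome 1, from Il1r1 through Il1rl2, Il1rl1 and Il18r1 to Il18rap (40225080 to 40551705, GRCm38, plus strand), and differed in their pattern over the libraries. Il1r2 lies before them on the same strand (40074079 to 40125231). It was not tested and had 0 counts in each G328V library and 26, 0 and 10 counts in WT. Il1rl2, the receptor of IL-36, held 0.688, 0.972 and 3.70 CPM in G328V and 0, 0 and 0.0172 CPM in WT. In counts that is 118, 117 and 681 against 0, 0 and 3, so that it was detected in each G328V library and was at the floor or below it in WT. The ratio of summed levels was 304, with a 95% interval of 104 to 1475 that covers counting error alone and treats each count as independent. In estimated fragments Il1rl2 had 67, 60 and 360 in G328V and 0, 0 and 3 in WT. The fitted log2 difference was 8.05 (SE 2.07, unadjusted edgeR p of 0.00746), a size that depends on the prior count. DESeq2 called Il1rl2 higher with an adjusted p of 1.08e-04, and did so without each of the 6 libraries in turn. The gene passed the filter on low counts through G328V alone, where it is high, so a gene of this kind had to differ to be tested. Its neighbours on chromosome 1 did not share this pattern. Il1r1, the next gene and the signalling receptor of IL-1, held 27.1, 59.3 and 67.0 CPM in G328V and 21.8, 23.6 and 70.5 CPM in WT, a log2 difference of 0.40 (SE 0.59). Il1rl1, the receptor of IL-33, held 1.31, 0.540 and 2.37 CPM in G328V and 0, 4.21 and 38.1 CPM in WT. Il18rap, a chain of the IL-18 receptor, held 5.39, 0.307 and 31.3 CPM in G328V and 0.0244, 10.6 and 87.6 CPM in WT. Il1rl1 and Il18rap shared the highest library, WT replicate 70A, and the lowest, WT replicate 1, and the log2 difference of Il18rap moved from -1.41 to 1.22 without replicate 70A. Il18r1, between them, had gene counts in G328V replicate 2 alone, 0.224 CPM. Its estimated fragments were 0, 14 and 14 in G328V and 0, 13 and 22 in WT.

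Il1rap, on chromosome 16, encodes the chain that the receptors of IL-1, IL-33 and IL-36 share. It held 61.7, 29.6 and 10.2 CPM in G328V and 198, 55.0 and 172 CPM in WT, where G328V replicate 1 exceeded WT replicate 3. The log2 difference was -2.07 (SE 0.77, unadjusted edgeR p of 0.0358), and DESeq2 gave an adjusted p of 0.339. Il1rn, the secreted antagonist of the IL-1 receptor, held 24.9, 3.13 and 1.58 CPM in G328V and 0.0163, 34.5 and 4.85 CPM in WT. No group stood above the other for Il1rn, with a log2 difference of -0.41 (SE 1.99) that limma-voom gave as 1.28. Over the family, 9 genes were in the table and 5 were tested, 2 positive and 3 negative with a median of -1.41.

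The other interleukin receptor chains were more often positive, 13 of 20 tested, with a median of 0.20, and 26 were in the table. Il17rd, an IL-17 receptor relative known as an inhibitor of FGF signalling, held 46.8, 54.8 and 71.7 CPM in G328V and 14.6, 167 and 221 CPM in WT. Its G328V values were close to each other and lay between the WT extremes (log2 difference -1.22, SE 0.87). Il13ra1, an X-linked chain of the IL-13 receptor and of a type of IL-4 receptor, held 64.0, 60.4 and 111 CPM in G328V and 3.13, 56.2 and 151 CPM in WT. Il4ra, its partner, held 26.0, 73.5 and 30.01 CPM in G328V and 3.20, 21.4 and 75.6 CPM in WT. WT replicate 1 was the lowest library for both chains and WT replicate 70A the highest, and their log2 differences were 0.16 (SE 1.11) and 0.37 (SE 1.04). Il6ra, the IL-6 binding chain, was even, at 39.1 ± 20.5 CPM in G328V and 36.0 ± 7.05 CPM in WT (SD, n = 3 each). Il5ra, the IL-5 binding chain of eosinophils and B cells, held 0.286, 2.64 and 5.45 CPM in G328V and 0.260, 138 and 16.7 CPM in WT. It was lowest in WT replicate 1 and highest in WT replicate 3, with a log2 difference of -4.21 (SE 2.05, unadjusted edgeR p of 0.0844) that was -1.63 without WT replicate 3. Antisense genes overlap exons of Il1rap, Il4ra and Il6ra.

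The remaining 33 tested members had unadjusted edgeR p-values of 0.142 or more and log2 differences from -4.40 (Ccr1, a receptor of CCL3 and CCL5) to 3.35 (Il2rb, a chain of the IL-2 and IL-15 receptors). None of them exceeded 44.4 CPM in any library. The 31 members not tested, 15 ligands and 16 of the receptor pattern, had at most 213 counts and 1.22 CPM in any library. Of all 92, 37 had counts in every library, 12 in 1 library, 38 averaged at least 1 CPM and 22 at least 10 CPM. A further 35 symbols that follow the rule were found in the deposited table of estimated fragments alone, 23 of them at 0 in all libraries. The most abundant of these was Il12rb2, a chain of the IL-12 receptor, with 197, 63 and 192 fragments in G328V and 61, 83 and 122 in WT.

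**Figure D3:**
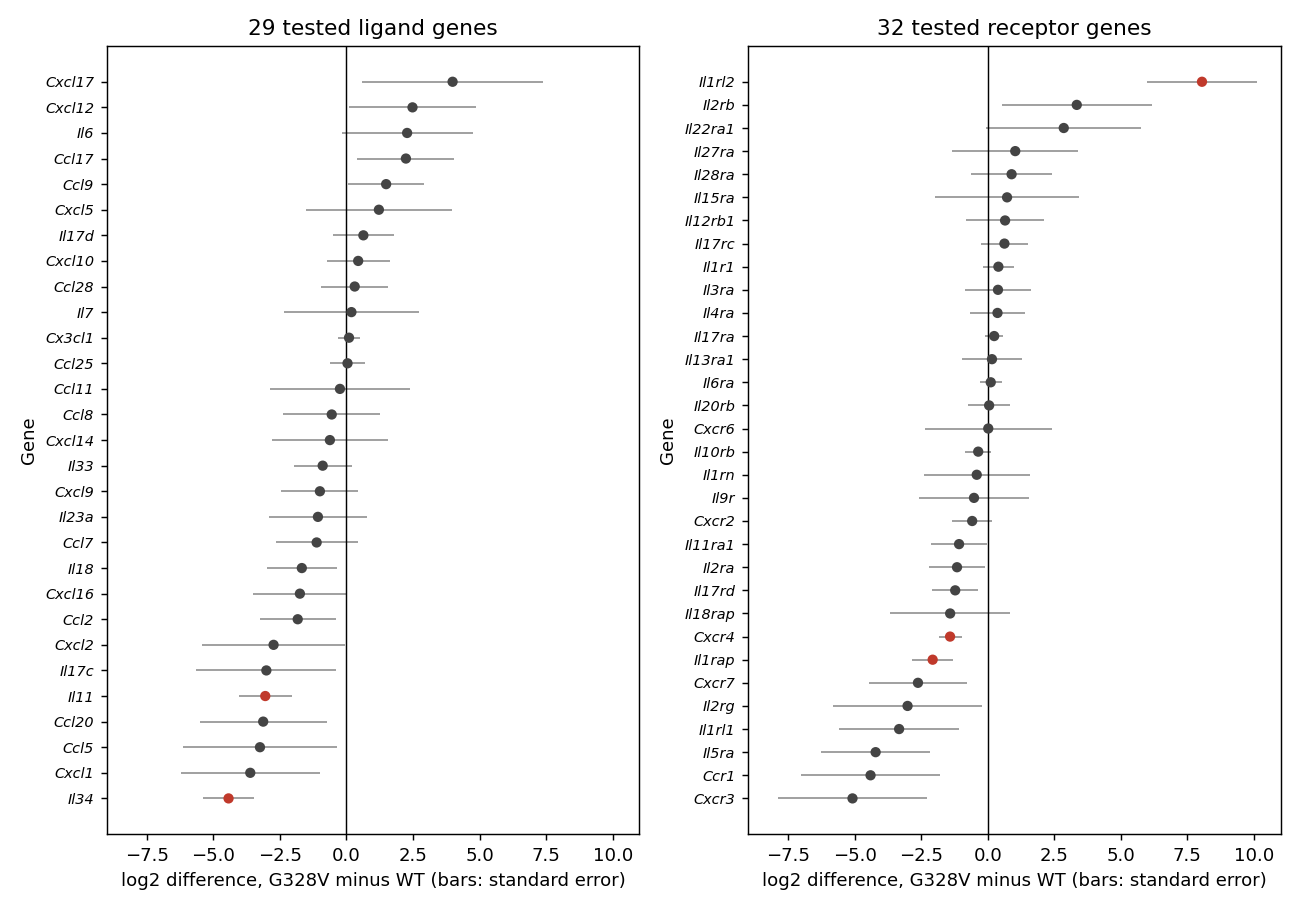
Log2 difference, G328V minus WT, of the 29 tested ligand genes (left) and the 32 tested genes of the receptor pattern (right), with bars of 1 standard error from edgeR. Red points mark the 5 members with an unadjusted p under 0.05, none of which passed the adjusted test, and the points spread to both sides of 0 in either panel.

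In several ligand and receptor pairs, 1 partner was near or at 0. Ccl2 reached 527 CPM, but its receptor gene Ccr2 held at most 0.0498 CPM, and Cx3cl1 was at 92.0 to 257 CPM beside at most 0.227 CPM of its receptor gene Cx3cr1. Ccr6, the receptor of CCL20, was listed at 0 fragments in all 6 libraries. Both receptor genes of the IL-1 signal, Il1r1 and Il1rap, were present throughout, whereas the ligand gene Il1a reached at most 0.773 CPM and Il1b had 18 fragments in G328V replicate 1 and 0 elsewhere. Of the IL-33 system, all 3 genes were present together in 5 libraries, and the receptor gene Il1rl1 was at 0 in WT replicate 1. Il11 had its receptor chain Il11ra1 at 3.90, 1.94 and 0.887 CPM in G328V and 1.41, 10.5 and 2.23 CPM in WT, although Il11ra1 overlaps Ccl27a on the other strand. The shared signalling chain gene Il6st held 111 to 136 CPM in G328V and 71.1, 273 and 220 CPM in WT. These are levels of RNA, and protein was not measured.

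The WT libraries differed widely among themselves in these genes. The summed level of the 92 members was 619, 784 and 1056 CPM in G328V and 612, 1372 and 2330 CPM in WT replicates 1, 3 and 70A. Ligands alone summed to 199, 336 and 512 CPM in G328V and 230, 422 and 1183 CPM in WT. Receptors summed to 420, 448 and 544 CPM in G328V and 382, 950 and 1147 CPM in WT. Both sums were highest in WT replicate 70A, and the G328V sums lay within the range of WT except for the ligands of G328V replicate 1, which were just below it. WT replicate 70A was the highest library for 17 of 61 tested members (27.9%) and for 10.8% of all tested genes, and the lowest for 0 members and 9.56% of all genes. WT replicate 1 was the lowest for 24 members (39.3%), beside 22.6% of all genes. CPM values spanned more than 10-fold within WT for 27 members (44.3%) and within G328V for 16 (26.2%), where all tested genes had 16.0% and 12.2%. Since WT replicate 1 was the lowest library for many members, leaving it out raised their WT mean by construction. Without it, the groups did not overlap for 12 of 34 ligands and 11 of 34 receptors, beside 23.3% of all genes. Leaving out any other library gave 3 to 7 ligands and 3 to 6 receptors, beside 16.8% to 21.5% of all genes. DESeq2, in fits chosen after seeing the data, called 6 receptors without WT replicate 1 in place of 1. The receptors were Cxcr3, Cxcr4, Il17rd, Il1rl1 and Il5ra, lower in G328V, and Il1rl2, higher. They were among 727 genes that DESeq2 called in all (4.63% of the genes given an adjusted p). The ligands it then called were Ccl2 and Il34, both lower in G328V. The summed level of the endothelial markers was also least in WT replicate 1, 8.72 CPM against 37.2 to 98.3 CPM in the other libraries. So was that of the microglia and macrophage list. Gene by gene, WT replicate 1 was the lowest library for 2 of 8 tested endothelial markers and the highest for 1. No endothelial marker was at 0 counts in it. Of the microglia and macrophage list, 4 of 8 tested markers were lowest in WT replicate 1. Pericyte and fibroblast markers summed to 18.3 CPM in WT replicate 1 and to 570 CPM in WT replicate 70A, and to 66.3 to 313 CPM elsewhere. The part of other cell types in the members' levels was not tested.

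**Figure D4:**
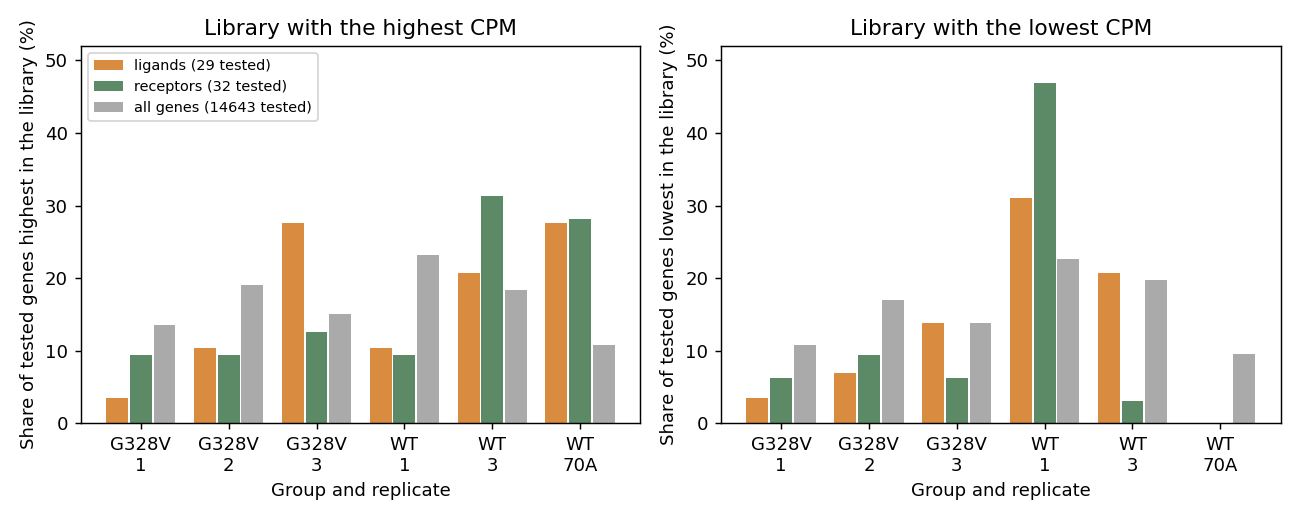
Share of tested genes, in percent, whose highest (left) or lowest (right) CPM fell in each library, for 29 ligands, 32 receptors and all 14643 tested genes; genes with tied lowest values are left out of the right panel's bars. WT replicate 70A was the highest library for 27.9% of the members against 10.8% of all genes, and WT replicate 1 was the lowest for 39.3% against 22.6%.

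Genes that act beside these ligands and receptors were read from 4 lists of the pathway, and edgeR called 0 genes in each. Of the chemokine signalling genes, 13 were tested, 4 positive and 9 negative with a median log2 difference of -0.26. Among receptor partners and JAK-STAT genes, 21 were tested, 8 positive and 13 negative with a median of -0.12. The adaptors of the IL-1, Toll and IL-17 receptors and the NF-kB genes counted 28 tested, 8 positive and 20 negative, with a median of -0.28. In that list Rela, the transactivating NF-kB subunit, held 41.9, 63.4 and 59.1 CPM in G328V and 93.9, 67.6 and 82.3 CPM in WT. Its groups did not overlap, and neither did those of Traf3. These were 2 of the 28 genes (7.14%), near the 9.70% of all tested genes. The log2 difference of Rela was -0.57 (SE 0.27, unadjusted edgeR p of 0.0762). Lifr, the receptor of leukemia inhibitory factor, held 94.4, 140 and 468 CPM in G328V and 48.6, 51.8 and 125 CPM in WT, which overlapped (log2 difference 1.64, SE 0.72). Of 11 tested genes of other cytokines, 4 were positive and 7 negative (median -0.19). Csf1, the first ligand of the CSF1 receptor, held 72.6, 90.6 and 134 CPM in G328V and 36.5, 41.3 and 73.7 CPM in WT. Its groups overlapped by a narrow margin, and the log2 difference was 0.97 (SE 0.39, unadjusted edgeR p of 0.0443). Csf1 was the 1 gene of these 11 with an unadjusted p under 0.05, beside 4.06% of all tested genes. Its difference was opposite in sign to that of Il34, which encodes the other ligand of that receptor.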

How the data were processed

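Gene counts were tested for G328V against WT, 3 libraries each, grouped by the genotype in the labels. The authors deposited whole-number counts per gene symbol made with HTSeq, not normalized, and estimated counts of fragments per gene made with Cufflinks, which were rounded to whole numbers here. The submitters' processing notes name mm10, FastQC 0.11.3, TopHat2 2.0.13 and Bowtie2 2.2.1. Per the labels' protocols, ribosomal RNA was depleted and a stranded kit was used, with both a TruSeq and a Pico kit named. The sources used here do not state the counting settings, and overlapping genes are uncertain. The median of 1.95 to 1.96 counts for each estimated fragment means that counts are not independent molecules. Intervals that treat them as independent may be too narrow, and floors and intervals cover counting error only.

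R 4.3.3 with edgeR 4.0.16 (TMM, filterByExpr with a minimum count of 10, robust quasi-likelihood F-test with the legacy fit) gave Benjamini-Hochberg adjusted p-values over 14643 genes at a threshold of 0.05, and standard errors were derived from F. Alternatives were limma-voom (limma 3.58.1), DESeq2 1.42.0, other scalings and filters, the Cufflinks counts, a replicate block and leaving out each library. Spreads of log2 CPM use an added 0.1 CPM. As a check of the code, the fits were run on simulated counts drawn gene by gene, which does not test the calls made here. Coordinates and exon lengths are from GENCODE M21 (GRCm38), which matched all 92 members. The labels give no batch.

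Named members were the 4 with the most counts in each class, those with at least 1 CPM on average and groups that do not overlap, the 4 ligands and 4 receptors with the smallest p, those that edgeR or DESeq2 called, and those with 90% of their summed CPM in 1 library at 5 CPM or more. Ccl17, Cxcl12, Il6, Rela, Traf3, Lifr, Csf1 and the receptor partners in the text were picked after their values were seen. The members and gene lists were chosen with earlier results of these data known.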

Additional observations from a re-analysis of the deposited data

How the results depend on the processing

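edgeR called 0 members and 0 genes, and limma-voom, other scalings and filters, the Cufflinks counts, the edgeR 4 fit (chosen after seeing the data), the replicate block and leaving out each library called 0 members too. DESeq2 called 173 genes, 2 ligands and 1 receptor. With 1 library left out, a set chosen after seeing the data, it called 1 to 3 ligands and 1 to 6 receptors, beside 272 to 727 genes in all (1.72% to 4.63%). DESeq2 shares with 1 library left out are of the genes given an adjusted p, whereas 0.986% with all libraries is of all 17551 genes. The 3 ligands, without WT replicate 70A, were Il34 (lower in G328V) and Cxcl5 and Il6 (higher), among 374 genes (2.38%). Beside 3 ligands whose groups did not overlap, there were 6 of 30 with the Cufflinks counts, where the share over all genes was 9.83%. Beside 2 receptors, there was 1 of 21 with a filter of 1 CPM in 3 libraries, where that share was 9.76%. With 1 library left out there were 3 to 12 ligands and 3 to 11 receptors, and the share over all genes was 16.8% to 23.3%. The ligand median of -0.62 was 0.94 with the replicate block and 0.28 without WT replicate 70A. The receptor median of -0.17 was 0.76 with the replicate block and -0.44 to 0.011 with 1 library left out. Total-count scaling moved the median over all genes to 0.12.

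The replicate block rests on numbers 1 and 3, since WT has no number 2. Deviations of libraries with the same number from their group means had correlations of 0.18 and 0.24 over genes, and the labels do not say that a number marks a pair. It gave positive differences for Ccl2 (1.39), Ccl20 (0.98), Ccl7 (1.52), Cxcr3 (0.21), Cxcr7 (0.26), Il17rd (0.23), Il18rap (4.41), Il1rl1 (3.42), Il1rn (2.54) and Il33 (0.89), all negative with 6 libraries. It leaves out G328V replicate 2 and WT replicate 70A, and the cause was not tested. limma-voom reversed Cxcl17 (-0.34), Il18rap (0.13), Il1rl1 (0.069), Il1rn (1.28) and Il33 (0.0072).

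With 1 library left out, the log2 difference crossed 0 for 14 named members. It ranged from -0.16 to 0.26 for Ccl25, -3.11 to 0.66 for Ccl7, -0.22 to 0.42 for Cx3cl1, -4.01 to 0.33 for Cxcl14, -8.11 to 5.77 for Cxcl17 and -1.99 to 10.3 for Cxcl5. For receptors it ranged from -1.15 to 0.15 for Cxcr2, -0.42 to 1.40 for Il13ra1, -3.53 to 1.22 for Il18rap, -2.48 to 2.00 for Il1rn, -0.26 to 1.80 for Il4ra and -0.40 to 0.35 for Il6ra. For Il18 and Il33 it ranged from -2.21 to 0.74 and from -1.45 to 1.18. Without crossing 0, it ranged from -2.53 to -0.48 for Ccl2, -4.91 to -0.53 for Ccl20, -4.23 to -0.88 for Cxcl1, -5.80 to -2.92 for Cxcr3, -5.14 to -2.07 for Cxcr7, -1.77 to -0.66 for Il17rd, -3.93 to -0.58 for Il1rl1, -5.14 to -1.63 for Il5ra and 0.096 to 1.16 for Il1r1. In all, 379 of 417 alternative values of the 28 named members kept their sign, and Il34, Il11, Il1rl2, Cxcr4 and Il1rap were among the 8 with no reversal. Depth limits the members near the floor, such as Il1rl2 in WT.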

Other observations

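Of 11 tested genes of other cytokines, 4 were highest in WT replicate 70A (36.4%), beside 10.8% of all tested genes, and 3 of those 4 are given here. Spp1, which encodes osteopontin, held 106, 1498 and 1071 CPM in G328V and 109, 1139 and 4604 CPM in WT replicates 1, 3 and 70A. Csf3, the granulocyte colony-stimulating factor gene, held 1.65, 21.2 and 1.05 CPM in G328V and 0.0163, 35.1 and 272 CPM in WT. Lif, the leukemia inhibitory factor gene, held 15.8, 59.1 and 13.0 CPM in G328V and 19.1, 27.2 and 115 CPM in WT. The groups overlapped for all 3, with unadjusted edgeR p-values of 0.440, 0.186 and 0.369. Csf2, the granulocyte-macrophage colony-stimulating factor gene, was not tested by edgeR and had counts in G328V replicate 2 (0.00831 CPM) and in WT replicates 3 and 70A (1.56 and 4.94 CPM). DESeq2 gave Csf2 an adjusted p of 0.0235, although it was at 0 in WT replicate 1 as in 2 G328V libraries. Stat6, the signal transducer of IL-4 and IL-13, held 58.1 to 96.1 CPM in G328V and 0.130, 205 and 183 CPM in WT, so that WT replicate 1 was low for it as for both receptor chains Il4ra and Il13ra1. These genes were picked after their values were seen.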
